A study of Mus musculus with 8 samples.

Results

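Follistatin (Fst) is a secreted protein that binds activins and keeps them from their receptors. Activins are dimers of beta subunits, made from Inhba and Inhbb, and belong to the TGF-beta family together with the bone morphogenetic proteins (BMPs). A ligand of this family brings together type II receptors (here Acvr2a, Acvr2b and Bmpr2) and type I receptors (Acvr1b for activin, Acvr1 and Bmpr1a mainly for BMPs). The type II receptor phosphorylates the type I receptor, and Smad proteins carry the signal to the nucleus. Activin is known to support the survival of neurons in culture, and BMPs act during the development of midbrain dopaminergic (mDA) neurons. The 9 genes named here were measured by 1 probeset each, 9 of the 35512 probesets on the array, found by their gene symbol in the platform annotation. Fst was selected on its measured signal, which is higher in both knockout preparations, and the other 8 genes were taken with it by family.

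The arrays profiled live EGFP+ cells sorted from the substantia nigra compacta (SNc) or the ventral tegmental area (VTA) of newborn C57Bl/6 pups (C57Bl/6J in the methods) aged P1 to P4. All pups carried 1 copy of a TH-EGFP transgene, in which the tyrosine hydroxylase gene's control region marks catecholaminergic cells. SNc WT and VTA WT cells came from Pitx3+/+;Th-EGFP+/- pups, and SNc KO and VTA KO cells from Pitx3-/-;Th-EGFP+/- pups, which lack a homeobox factor needed by many mDA neurons, and each of the 4 groups has 2 arrays. The study describes SNc KO cells as the Pitx3-negative neurons that are spared after the Pitx3-positive ones have died, and the VTA KO cells as still holding the neurons that would have expressed Pitx3. RNA was extracted in duplicate from batches of sorted cells of each preparation and linearly amplified. Whether the duplicates hold cells of separate animals is not stated, so p-values rest on a spread between samples that may be technical.

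Values are log2 signals summarised by RMA, and 60 on the linear scale is the minimum signal used by the study. Array medians lay between 6.11 and 6.24. The standard deviation between the 2 arrays of a group, as a root mean square over the probesets tested, was 0.241 to 0.252 in SNc WT, SNc KO and VTA WT. It was 0.376 in VTA KO. Pitx3 itself was at 7.72 and 7.63 on the arrays of SNc WT and at 7.87 and 7.94 on the SNc KO arrays, and at 8.10 and 7.84 (VTA WT) and 8.08 and 7.92 (VTA KO). Its probeset is not lower in the knockouts, and which parts of the gene were deleted and probed was not known here, so it does not check the labels. All 10 dopaminergic neuron markers listed for the check, Th among them, reached the minimum in every group.

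Fst was the member whose level moved most between groups. It was chosen for its higher signal in the knockouts and the others were not chosen by signal, so this place follows from the choice. Its log2 signal was 5.89 and 5.80 on the arrays of SNc WT, 8.03 and 8.09 on the SNc KO arrays, 6.97 and 6.95 on the VTA WT arrays, and 8.44 and 8.44 on the VTA KO arrays. The arrays of no group overlapped those of another, and the order from high to low was VTA KO, SNc KO, VTA WT and SNc WT, with every gap wider than the spread within the neighbouring groups. On the linear scale the group means correspond to 347, 266, 124 and 57.3, the last of them under the minimum of 60, so that the size of any difference against SNc WT is uncertain. Array signals from many cells cannot tell fewer Fst-expressing cells from less Fst RNA per cell.

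**Figure D1:**
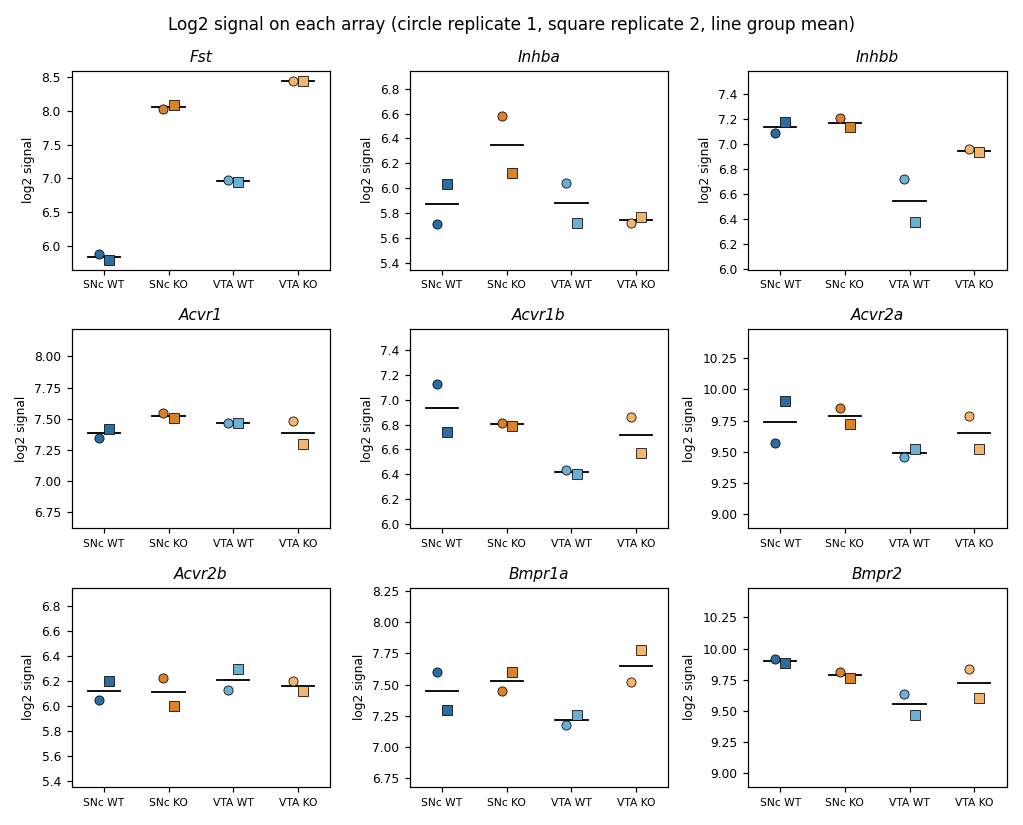
Log2 signal (vertical axes, each spanning its own range) of the 9 genes on every array of the 4 groups. Circles are replicate 1, squares replicate 2 and lines group means. Fst, which was chosen for its change, steps from 5.84 in SNc WT to 8.44 in VTA KO with 2 arrays of each group nearly on top of each other. The group means of the receptors, taken by family, lie much closer together.

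The contrasts by which Fst was picked are given as a description. In SNc KO cells Fst was higher than in SNc WT cells by 2.22 on the log2 scale (standard error 0.10), a fold of 4.65, and it ranked 10th from the top among 22112 probesets. In VTA KO cells it was higher than in VTA WT cells by 1.48 (standard error 0.10), a fold of 2.79, and ranked 74th. Leaving out any single array kept these values between 2.17 and 2.26 in SNc and between 1.47 and 1.49 in VTA.

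The difference of Fst between the wild-type regions was not itself used to choose it. The same WT arrays are the baselines of the contrasts that were used, so the p-value here is not independent of the choice. Wild-type SNc cells had a lower Fst signal than wild-type VTA cells, with a mean of 5.84 ± 0.063 (SD, n = 2) against 6.96 ± 0.020, which is -1.12 on the log2 scale (95% confidence interval -1.36 to -0.88, limma adjusted p = 0.0165). In this comparison 0.439% of the probesets tested passed an adjusted p under 0.05. The call ended without either SNc WT array, either SNc KO array or either VTA WT array (adjusted p between 0.0552 and 0.141), although the difference itself stayed between -1.16 and -1.07.

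Between the knockout preparations, Fst was at 8.06 ± 0.040 (SD, n = 2) in SNc KO and at 8.44 ± 0.0037 in VTA KO, a log2 difference of -0.38 that did not pass limma's test (adjusted p = 0.178, 95% confidence interval -0.62 to -0.14 before adjustment). The 2.22 in SNc exceeds the 1.48 in VTA by 0.74 (standard error 0.14), and it did so by 0.55 after quantile normalization. This is a difference of the values that picked Fst and is likewise given as a description. All these comparisons share arrays, so their values are not independent of each other.

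Markers of other cells also differed between the groups. The summed linear signal of 12 pericyte and smooth muscle markers was 942 to 1024 in SNc WT and 2188 to 2420 in SNc KO, where Fst is higher as well. In SNc KO versus SNc WT, 3 of the 11 tested were higher at an unadjusted p under 0.05 and 0 passed limma's adjusted p. In VTA the same sum was 2273 to 3009 in WT. In KO it was 2833 on replicate 1 and 772 on replicate 2, and Fst was at 8.44 on both KO arrays. The summed signal of 12 ciliated ependymal markers was 742 to 790 in SNc WT, 821 to 839 in SNc KO, 4775 to 5656 in VTA WT and 1874 to 3296 in VTA KO. Their median log2 difference was -2.62 in SNc WT versus VTA WT, beside the Fst difference of -1.12. There 5 of the 12 passed limma's adjusted p, all lower in SNc WT, beside 0.439% of all probesets. The median was -1.08 in VTA KO versus VTA WT and 0.055 in SNc KO versus SNc WT, beside Fst differences of 1.48 and 2.22.

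The 10 dopaminergic neuron markers summed to 8791 to 9363 in SNc WT, 6323 to 7063 in SNc KO, 7661 to 7790 in VTA WT and 6323 to 6554 in VTA KO. This sum was lower in both knockout preparations, where Fst was higher. At limma's unadjusted p under 0.05, 4 of the 10 markers were lower in SNc KO and 3 in VTA KO, and 0 were higher. The shares of all probesets were 8.62% and 10.2%. In SNc KO versus SNc WT 1 of the 10 passed limma's adjusted p, the dopamine receptor gene Drd2 (-0.98, adjusted p = 0.0380), beside 0.149% of all probesets. In VTA KO versus VTA WT 0 of the 10 did. The markers did not move alike: Slc6a3, the dopamine transporter, differed by -0.98 in SNc and -0.90 in VTA, and Th by -0.084 and 0.12. The summed signal of 10 astrocyte markers was 2516 to 2605 in SNc WT, 2711 to 2753 in SNc KO, 3786 to 4044 in VTA WT and 2056 to 3039 in VTA KO. Their median log2 difference was -0.85 between SNc WT and VTA WT, where Fst differed in the same direction. It was -0.65 in VTA KO versus VTA WT, where Fst differed in the opposite direction, and 0.23 in SNc KO versus SNc WT. The summed signal of 7 markers of dividing cells was 388 to 395 in SNc WT, 490 to 506 in SNc KO, 510 to 519 in VTA WT and 359 to 530 in VTA KO, and that of 8 oligodendrocyte lineage markers was 1209 to 1211, 1418 to 1434, 1212 to 1286 and 1137 to 1256 in the same order. Both sums were higher in SNc KO than on either SNc WT array, as Fst was. At limma's unadjusted p under 0.05, 3 of the 8 oligodendrocyte lineage markers were higher there, beside 8.62% of all probesets. Of the 6 tested dividing cell markers 0 were. In VTA KO versus VTA WT, where Fst was higher, the median log2 differences were -0.35 (dividing cells) and -0.24 (oligodendrocyte lineage). Cspg5 had the highest signal of the oligodendrocyte list (means of 9.47 in SNc WT and 9.77 in SNc KO). Sox10 differed by -0.054 and Ugt8a by -0.14. In the astrocyte list Fabp7 was highest (10.8 in SNc WT). Cspg5 and Fabp7 weigh most in their sums. For fibroblast markers 6 of 10 lay under the minimum in every group, and the sum ranged only from 524 to 667 over the 8 arrays. The part of other cells in the Fst levels was not tested.

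**Figure D2:**
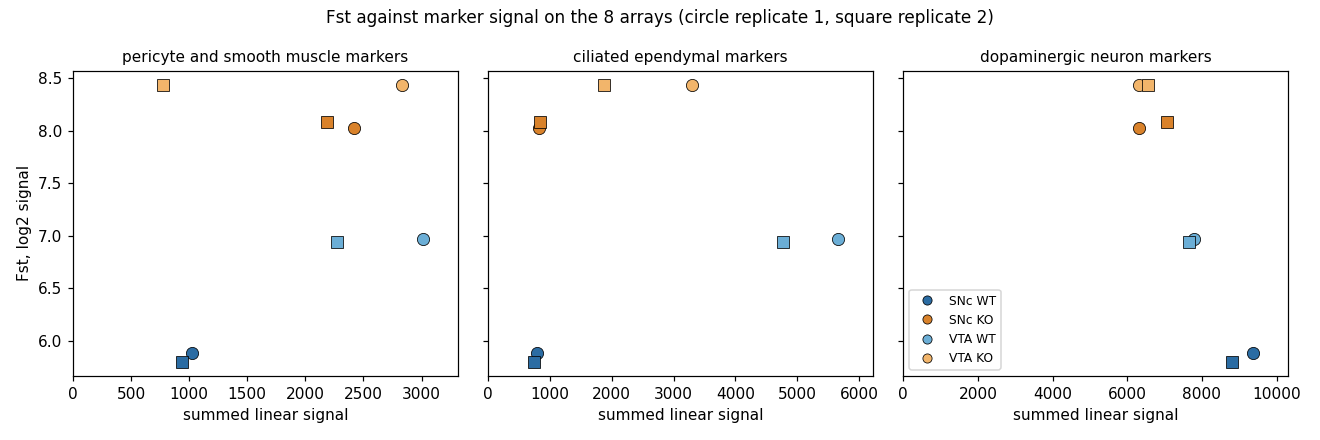
Log2 signal of Fst (vertical axis) against the summed linear signal (horizontal axes) of 12 pericyte and smooth muscle, 12 ciliated ependymal and 10 dopaminergic neuron markers, 1 point per array, circles replicate 1 and squares replicate 2. The 2 VTA KO arrays lie at the same height (8.44), with pericyte sums of 2833 and 772.

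The activin subunit genes, taken by family and not by their signal, varied less. Inhbb, which makes the beta B subunit of activin B, had signals of 7.09 and 7.18 on the arrays of SNc WT, 7.21 and 7.14 on SNc KO, 6.72 and 6.37 on VTA WT, and 6.96 and 6.94 on VTA KO. The SNc arrays overlapped each other and lay above all VTA arrays, and VTA KO lay above VTA WT. In SNc WT versus VTA WT the log2 difference was 0.59 (standard error 0.14, 95% confidence interval 0.26 to 0.92), which did not pass (limma adjusted p = 0.120).

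Inhbb did meet the study's thresholds there, which were a fold of 1.5 or more, an unadjusted p (here limma's) no higher than 0.05, and a linear signal of 60 or more in either group. Its fold was 1.51, just over that limit, and its log2 difference dropped to 0.55 without SNc WT replicate 2 and to 0.42 without VTA WT replicate 2, which is under it. In VTA KO versus VTA WT Inhbb had a difference of 0.40 (95% confidence interval 0.070 to 0.74, adjusted p = 0.399 by limma), and in SNc KO versus SNc WT one of 0.036 (95% confidence interval -0.30 to 0.37, adjusted p = 0.978). The difference between these knockout values was -0.37 (standard error 0.20, adjusted p = 0.586).

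Inhba, which makes the beta A subunit of activin A, was near the minimum everywhere. It had signals of 5.71 and 6.03 on the arrays of SNc WT, 6.58 and 6.12 on SNc KO, 6.04 and 5.72 on VTA WT, and 5.72 and 5.77 on VTA KO. The SNc KO arrays were the highest, and the other 3 groups overlapped. The SNc KO mean was also the only one over the minimum (81.7 on the linear scale against 53.5 to 58.9), so Inhba entered the tests through the group in which it is highest. In SNc KO versus SNc WT its log2 difference was 0.48 (standard error 0.20, adjusted p = 0.586 by limma), and 0.25 without SNc KO replicate 1.

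In SNc KO versus VTA KO Inhba had a difference of 0.61 (standard error 0.20, limma adjusted p = 0.224) and was past the study's thresholds. It was not past them without SNc KO replicate 1 (0.38) or without either VTA KO array. In SNc WT versus VTA WT its difference was -0.011, with a 95% confidence interval of -0.50 to 0.48.

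Among the type I receptors, Acvr1b, the activin receptor also called ALK4, was lowest in VTA WT. Its signals were 7.13 and 6.74 on the arrays of SNc WT, 6.81 and 6.79 on SNc KO, 6.44 and 6.40 on VTA WT, and 6.86 and 6.57 on VTA KO. Both VTA WT arrays lay below the other 6, whose groups overlapped. The log2 difference was 0.52 in SNc WT versus VTA WT (standard error 0.16, limma adjusted p = 0.189) and 0.30 in VTA KO versus VTA WT (standard error 0.16, adjusted p = 0.594).

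Bmpr1a, a type I receptor for BMPs, showed the same low position of VTA WT. It had 7.60 and 7.29 on the arrays of SNc WT, 7.45 and 7.60 on SNc KO, 7.18 and 7.25 on VTA WT, and 7.52 and 7.78 on VTA KO. The groups other than VTA WT overlapped with their neighbours. In VTA KO versus VTA WT the difference was 0.44 (standard error 0.15, 95% confidence interval 0.067 to 0.81, limma adjusted p = 0.410), and it lay between 0.31 and 0.57 when single arrays were left out. In SNc KO versus SNc WT it was 0.080 (95% confidence interval -0.29 to 0.45).

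Acvr1, a type I receptor that serves BMPs and is also bound by activin, was the steadiest of the 3. It had 7.35 and 7.42 on the arrays of SNc WT, 7.54 and 7.51 on SNc KO, 7.47 and 7.46 on VTA WT, and 7.48 and 7.30 on VTA KO. SNc KO was highest by a narrow gap of 0.060 over VTA WT, and VTA KO overlapped with VTA WT and with SNc WT. Its differences were 0.14 in SNc KO versus SNc WT and -0.079 in VTA KO versus VTA WT (adjusted p = 0.816 and 0.845 by limma).

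Of the type II receptors, Bmpr2, which binds BMPs, was highest in SNc WT. Its signals were 9.91 and 9.88 on the arrays of SNc WT, 9.81 and 9.77 on SNc KO, 9.64 and 9.46 on VTA WT, and 9.84 and 9.61 on VTA KO. SNc WT lay above the other groups, SNc KO overlapped with VTA KO, and VTA KO overlapped with VTA WT. Against VTA WT the SNc WT level differed by 0.35 (standard error 0.12, limma adjusted p = 0.219).

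Acvr2a, the activin type II receptor, had 9.57 and 9.91 on the arrays of SNc WT, 9.85 and 9.73 on SNc KO, 9.46 and 9.52 on VTA WT, and 9.78 and 9.52 on VTA KO. Neighbouring groups in its order overlapped throughout, and its differences ran from 0.049 in SNc KO versus SNc WT to 0.25 in SNc WT versus VTA WT (adjusted p = 0.971 and 0.432 by limma). Acvr2b, its close relative, stayed between 6.00 and 6.30 on all 8 arrays with overlap between all neighbours. Its 95% confidence interval was -0.33 to 0.31 in SNc KO versus SNc WT and -0.37 to 0.26 in VTA KO versus VTA WT.

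**Figure D3:**
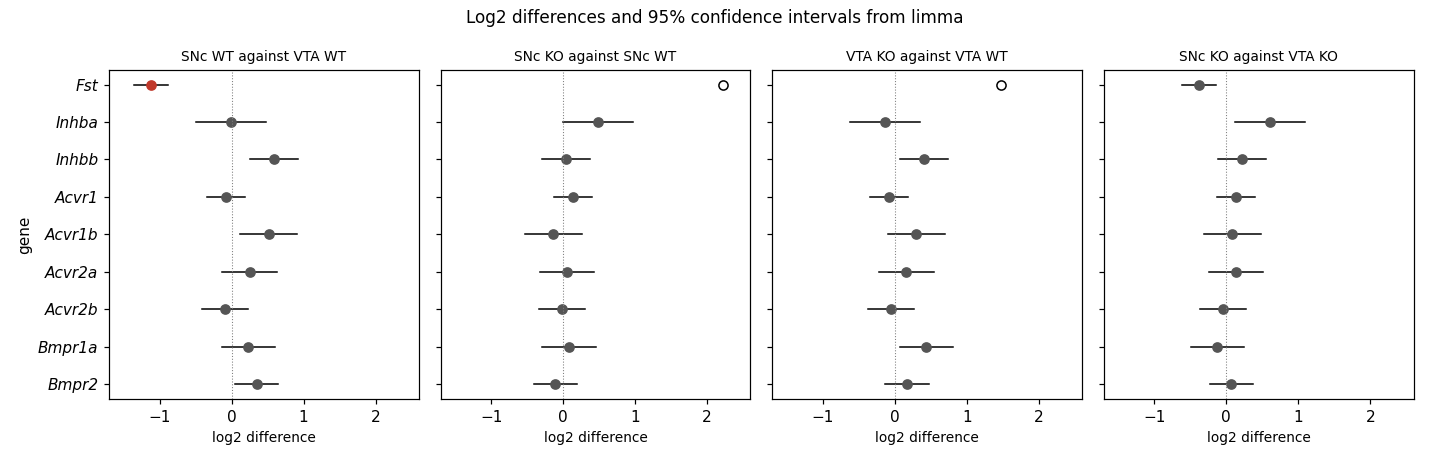
Log2 differences (horizontal axes) of the 9 genes in 4 comparisons. Lines are 95% confidence intervals from limma, the red point passed an adjusted p under 0.05, and open circles mark the 2 values by which Fst was picked, drawn without an interval. In the knockout comparisons the values of the other 8 genes lie between -0.13 and 0.48 (SNc) and between -0.14 and 0.44 (VTA).

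Counted over the 8 genes other than Fst, 0 passed limma's adjusted p in any comparison. The shares of all tested probesets that passed it were 0.149% for SNc KO versus SNc WT, 0.00904% for VTA KO versus VTA WT and 0.149% for SNc KO versus VTA KO. At an unadjusted p under 0.05 there were 3 of 8 between the wild-type regions (Inhbb, Acvr1b and Bmpr2), beside 18.8% of all probesets. The knockout comparisons had 0 of 8 in SNc (8.62% of all probesets) and 2 of 8 in VTA, Inhbb and Bmpr1a (10.2%), and the knockout regions had 1 of 8, Inhba (17.5%). The study's thresholds were met by 1 of 8 between the wild-type regions (Inhbb), where 6.62% of all probesets met them, and by 2 of 8 after median subtraction, which brought Acvr1b to 0.62. They were met by 0 of 8 in both knockout comparisons, where 3.6% (SNc) and 4.35% (VTA) of all probesets did, and by 1 of 8 between the knockout regions, where 6.96% did. That 1 was Inhba, which was tested only because of its level in SNc KO, so its count there supports nothing. For the difference between the SNc and VTA knockout values, 0 of 8 passed limma's adjusted p, had an unadjusted p under 0.05 or met the study's thresholds, beside 0%, 9.89% (2186 probesets) and 6.74% of all probesets.

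The wild-type regions separated the arrays of 6 of these 8 genes, 5 of them higher in SNc and Acvr1 lower, against 58.3% of all probesets whose arrays did not overlap there. For the knockouts, the arrays of 3 of 8 did not overlap in SNc (44% of all probesets), those of 3 of 8, all higher in KO, did not in VTA (38.2%), and those of 3 of 8 did not between SNc KO and VTA KO (48.6%). The medians of the 8 log2 differences were 0.24 between the wild-type regions, 0.043 in the SNc and 0.17 in the VTA knockout, beside medians of 0.0080, 0.014 and -0.023 over all probesets tested. All SNc arrays had lower medians than the VTA arrays, and subtracting each array's median adds 0.11 to every value of SNc WT versus VTA WT and turns Inhba, Acvr1 and Acvr2b there from below to above 0.

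The wider pathway was described from 7 lists of 93 further genes, of which 87 had a probeset and 59 were tested. In SNc WT versus VTA WT, 1 of the 59 passed limma's adjusted p, Bmp5, and it was lower in SNc WT. Bmp5 encodes a BMP ligand. It had signals of 5.21 and 5.16 on the arrays of SNc WT, 6.00 and 5.92 on SNc KO, 6.23 and 6.32 on VTA WT, and 6.18 and 6.27 on VTA KO. The SNc WT arrays were the lowest and the VTA groups overlapped.

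The Bmp5 difference in SNc WT versus VTA WT was -1.09 (standard error 0.10, adjusted p = 0.0165 by limma), and both SNc groups lay under the linear minimum or close to it, so its size is uncertain. As for Fst, the call ended without any array of SNc WT, SNc KO or VTA WT (adjusted p between 0.0552 and 0.144). In SNc KO versus SNc WT Bmp5 had a difference of 0.78 (adjusted p = 0.0730) and in VTA KO versus VTA WT its means were 6.23 and 6.28.

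In the knockout comparisons 0 of the 59 passed limma's adjusted p. At an unadjusted p under 0.05, 7 differed between KO and WT in SNc, 6 of them higher in KO, and 3 did in VTA, 2 of them higher in KO, beside 8.62% and 10.2% of all probesets, with medians of 0.058 and -0.027 over the 59. The study's thresholds were met by 5 of the 59 in SNc KO and by 1 in VTA KO, all higher, beside 3.6% and 4.35% of all probesets. These counts are small, and the 1 and 3 of 59 in VTA lie below those shares.

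The list of secreted antagonists and follistatin-like proteins had 12 tested genes, of which 3 in SNc and 2 in VTA had an unadjusted p under 0.05, each with a higher level in KO, against 8.62% and 10.2% of all probesets, and 0 passed limma's adjusted p. Its median log2 difference was 0.16 in SNc and 0.040 in VTA. Bmper, a secreted protein that binds BMPs, had signals of 6.73 and 6.77 on the arrays of SNc WT and 7.52 and 7.63 on SNc KO, and of 6.30 and 6.81 on VTA WT and 7.49 and 7.23 on VTA KO. Like Fst it was higher on every KO array than on any WT array. Its differences were 0.83 in SNc and 0.81 in VTA (standard error 0.19 for both, adjusted p = 0.273 and 0.252 by limma).

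Grem1, a BMP antagonist, and Fstl1, a follistatin-like protein, had differences of 0.80 and 0.93 in SNc KO versus SNc WT (adjusted p = 0.307 and 0.323 by limma). The Fstl1 signals on the SNc KO arrays, 6.04 and 6.77, lay far apart. On the SNc WT arrays they were 5.47 and 5.48, under the minimum, so the size of any Fstl1 difference against SNc WT is uncertain. Crim1, a membrane protein that binds BMPs, had a difference of 0.47 in VTA KO versus VTA WT (adjusted p = 0.310). Between the wild-type regions Crim1 had a difference of 0.42, Chrd, which encodes the BMP antagonist chordin, one of -0.32, and Fstl1 one of -0.72 (limma adjusted p between 0.185 and 0.196), and between the knockout regions Grem1 had one of 0.59 (adjusted p = 0.224). Chrd was also under the minimum in SNc WT (a mean of 5.73), so the size of its difference is likewise uncertain.

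Among ligands of the activin and GDF branch, Gdf11, which follistatin also binds, had a difference of 0.43 in SNc KO versus SNc WT (adjusted p = 0.502 by limma), and Inha, the inhibin alpha subunit, one of 0.60 in SNc KO versus VTA KO (adjusted p = 0.231). Tgfbr3, a co-receptor that binds inhibin, had one of -0.47 between the wild-type and -0.39 between the knockout regions (adjusted p = 0.106 and 0.178).

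Of the 14 Smads and regulators tested, Smad3, which carries the activin signal, had a difference of -0.52 in SNc WT versus VTA WT (adjusted p = 0.117 by limma), with Tgif1, a repressor of Smad targets, at -0.52 and the ubiquitin ligase gene Smurf2, which has 2 probesets, at 0.38. Tgif1 reached the minimum only in VTA WT (mean log2 signal of 6.15). It was tested through the group in which it is highest, so its difference supports nothing. In SNc KO versus SNc WT Smurf2 was at -0.34 (adjusted p = 0.518). In VTA KO versus VTA WT 0 of the 14 had an unadjusted p under 0.05.

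The 11 tested transcripts known to respond to Smads had medians of 0.074 in SNc KO versus SNc WT and -0.089 in VTA KO versus VTA WT. Id2, a target of BMP signalling, had signals of 5.61 and 6.25 on the arrays of SNc WT and 6.63 and 6.84 on SNc KO, a difference of 0.81 (adjusted p = 0.375 by limma), with VTA WT at 5.64 and 5.91 and VTA KO at 5.93 and 5.94. Msx1, a homeobox target of BMPs, had differences of -0.52 in SNc WT versus VTA WT and -0.29 in VTA KO versus VTA WT (adjusted p = 0.101 and 0.440). Smad7, an inhibitory Smad induced by the pathway, had one of -0.39 between the wild-type regions (adjusted p = 0.252). Msx1 and Smad7 reached the minimum only in VTA WT (mean log2 signals of 6.04 and 6.03). They entered the tests through the group in which they are highest, so these differences support nothing. Between SNc KO and VTA KO the values were 0.80 for Id2 and 0.51 for Hey1, a transcriptional repressor (adjusted p = 0.190 and 0.212).

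**Figure D4:**
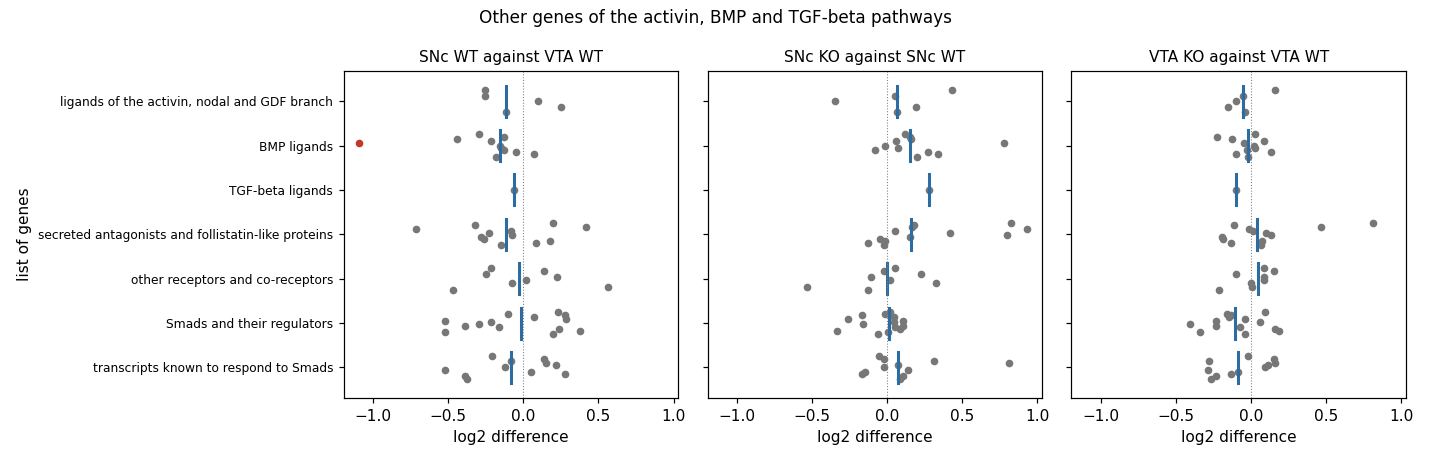
Log2 differences (horizontal axes) of the tested genes of 7 pathway lists in 3 comparisons, 1 dot per gene, with the median of each list as a blue bar. The red dot, Bmp5 at -1.09, passed an adjusted p under 0.05 from limma, and the dots farthest to the right in the knockout panels, at 0.93 (SNc) and 0.81 (VTA), are Fstl1 and Bmper. Bmp5 and Fstl1 lay under the minimum in SNc WT, so the sizes of their values are uncertain.

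The genes most like Fst were taken as those with the highest Pearson correlation with it over the 8 arrays, among probesets with 1 gene symbol. They were Sulf1 (r = 0.992), a sulfatase acting on heparan sulfate, Kcnk9 (0.988), a potassium channel, Rtl1 (0.977), an imprinted gene derived from a retrotransposon, Galnt16 (0.970), a glycosyltransferase, Htr2a (0.965), a serotonin receptor, and Pcdh9 (0.963), a protocadherin with 2 probesets. Each of these values stayed at 0.954 or above when any array was left out. The 8 arrays share 4 groups and the highest of many correlations were taken, so the values are a description.

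Sulf1 had the order of Fst, with group means of 6.74 in SNc WT, 7.74 in VTA WT, 8.68 in SNc KO and 8.74 in VTA KO. Unlike those of Fst, its SNc KO arrays (8.66 and 8.70) overlapped with its VTA KO arrays (8.68 and 8.80). Rtl1 and Galnt16 had the same order with much smaller steps, at most 0.22 and 0.26 between KO and WT. Opposite to Fst were Dcc (r = -0.994), the netrin receptor, Cd47 (-0.991), a membrane protein with 2 probesets, and Rgs6 (-0.987), a regulator of G-protein signalling. Rgs6 had group means of 8.69 in SNc WT, 7.77 in VTA WT, 6.44 in SNc KO and 6.04 in VTA KO. The other 8 genes of the family had correlations with Fst between -0.249 (Bmpr2) and 0.486 (Bmpr1a).

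**Figure D5:**
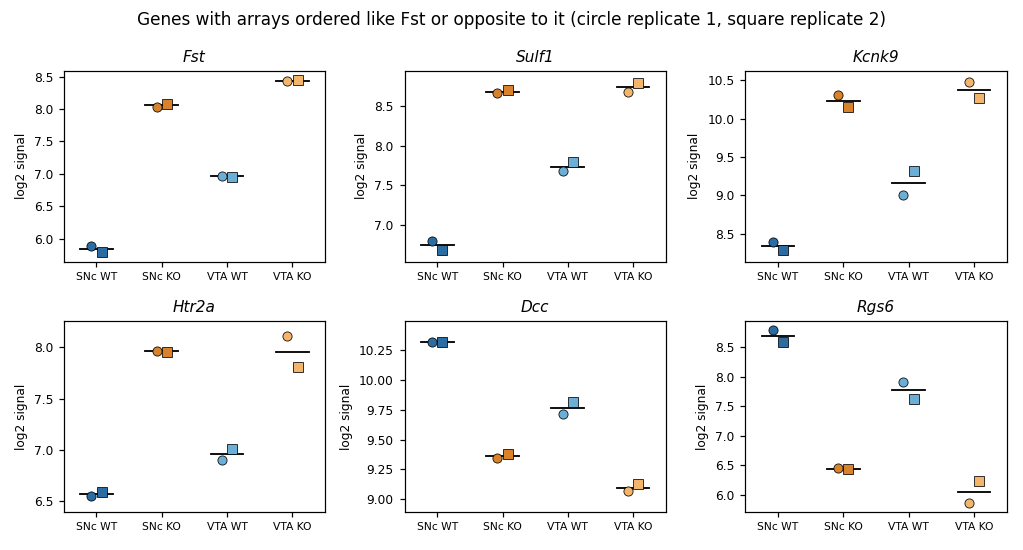
Log2 signal (vertical axes) of Fst, 3 of the genes most like it and 2 of those opposite to it on every array of the 4 groups, circles replicate 1, squares replicate 2 and lines group means. Sulf1, Kcnk9 and Htr2a are lowest in SNc WT and next in VTA WT, as Fst is, while Dcc and Rgs6 are highest there.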

How the data were processed

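Cells of 4 preparations were profiled in duplicate on Affymetrix Mouse Gene ST arrays. The log2 expression values were deposited by the authors, who summarised them with RMA (RMA Express by the methods, which also name normalization with the LPE algorithm of FlexArray); no software version and no build were given in the sources used here. Of 35512 probesets 21789 carry 1 gene symbol, taken from the platform annotation, in which each of the 9 members has 1 probeset.

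Differences were fitted with limma 3.58.1 in R 4.3.3 on all 8 arrays with 1 mean per group (4 residual and 2.40 prior degrees of freedom). Tests covered the 22112 probesets whose mean reached 60 (linear) in any group, among them all 9 members. A call needed an adjusted p (Benjamini-Hochberg, over all these probesets) under 0.05. Confidence intervals are not adjusted. The precision is limited by 2 arrays per group. LPE was not run. The study's threshold on p is printed in its methods as a lower bound and was read as an upper one. The fit was tested on simulated data.

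The members, lists and tests were chosen with earlier results of these data known. All 9 members are named. Of each pathway list, the called genes are named, or otherwise up to 3 genes with the smallest unadjusted p under 0.05 in a comparison, and 6 and 3 genes by correlation with Fst. A gene with several probesets is represented by that of highest mean in the lists and by the closest one in the correlations. Alternatives were the signal filter, normalization, variance model, arrays in the fit, a replicate block and leaving out each array.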

Additional observations from a re-analysis of the deposited data

How the results depend on the processing

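With 2 arrays a group, signals near the minimum (Inhba, Acvr2b, Fst in SNc WT) and uncalled differences are the least certain. Under 16 alternatives per comparison (15 for the difference between regions), 669 of the 716 alternative values of single genes kept their direction and side of the threshold or, for the values that chose Fst and their difference, moved by less than the spread between arrays. Most of these values were uncalled in the main fit, and several alternatives leave the log2 difference as it was, so this total is no measure of stability. In SNc WT against VTA WT the call of Fst was lost in 6 of 16 alternatives and that of Bmp5 in 6 of 15. Fst in SNc KO against SNc WT was at 2.10 after quantile normalization, and in VTA KO against VTA WT it was at 1.55 after quantile normalization and 1.503 after median subtraction. The difference of the values was 0.55 after quantile normalization and 0.69 to 0.78 with single arrays left out. The cause of the changes was not tested. Counts of members include Fst only where SNc WT or SNc KO is compared with its VTA counterpart, and the 8 others elsewhere. Single arrays left out in turn gave 0 to 1 members called in SNc WT against VTA WT, and at the study's thresholds 1 to 2 there, 0 to 1 in SNc KO against SNc WT, 0 to 1 in SNc KO against VTA KO and 0 to 1 for the difference between regions. Median subtraction gave 3 in SNc WT against VTA WT. The count of SNc KO against VTA KO was 0 with a linear minimum of 100, at which Inhba was not tested, and with array weights.

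The deviations of same-numbered arrays correlated by 0.0058 to 0.098 between groups, so no strong shift shared by replicate number was seen. Whether same-numbered samples were prepared together is not stated. With the replicate block, 1 member was called in SNc WT against VTA WT, Fst (adjusted p = 0.0390 from limma). This p-value is not independent of the choice of Fst. Of the 8 others, 0 were called in any comparison.

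Directions turned for uncalled members, none of which passed limma's adjusted p in the setting concerned. In SNc WT against VTA WT, Inhba was at 0.105 and Acvr2b at 0.017 after quantile normalization, and Inhba at 0.095, Acvr1 at 0.024 and Acvr2b at 0.016 after median subtraction. In SNc KO against VTA KO, Acvr2b was at 0.030 and Bmpr2 at -0.061 after quantile normalization, and Acvr2b at 0.026 after median subtraction. Leaving out single arrays gave these ranges. In SNc WT against VTA WT Inhba ranged from -0.172 to 0.149. In SNc KO against SNc WT Inhbb ranged from -0.0079 to 0.080, Acvr1b from -0.328 to 0.059, Acvr2a from -0.118 to 0.217, Acvr2b from -0.123 to 0.099 and Bmpr1a from -0.073 to 0.233. In VTA KO against VTA WT Inhba ranged from -0.296 to 0.019, Acvr1 from -0.170 to 0.013 and Acvr2b from -0.141 to 0.034. In SNc KO against VTA KO Acvr1b ranged from -0.062 to 0.228, Acvr2b from -0.159 to 0.063, Bmpr1a from -0.255 to 0.0051 and Bmpr2 from -0.046 to 0.185. For the difference between regions Acvr2a ranged from -0.280 to 0.056 and Acvr2b from -0.069 to 0.153.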
